A study of Saccharomyces cerevisiae with 6 samples.

Results

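The autophagy genes described here are 33 genes of the budding yeast Saccharomyces cerevisiae, 32 with ATG names and VPS30. They were chosen by name and role, and no measured value enters the rule. Earlier results of these data were known when the genes were chosen. They cover the machinery that builds the autophagosome, the cargo receptors of selective autophagy and 2 vacuolar proteins. Each of the 33 had a row of its own among 5475 gene rows. Levels were compared between a bud27 deletion strain (2 libraries), WT incubated overnight with rapamycin at 50 ng/ml (2 libraries) and WT (2 libraries). All 3 groups are labelled as BY4741, a haploid laboratory strain, a label that some marker genes below go against, and were grown in YPD, a rich glucose medium, at 30 °C to an optical density (OD600) near 0.8. Bud27 belongs to the prefoldin-like proteins, and rapamycin is a drug that blocks the kinase complex TORC1. Each library counted reads near the 3′ ends of polyadenylated RNA (QuantSeq), so a level is reads per transcript and does not grow with its length.

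Autophagy carries cytoplasm and organelles to the vacuole, the lytic compartment of yeast, inside a double membrane called the autophagosome. The Atg1 kinase complex starts the process. A phosphatidylinositol kinase complex, vesicles that carry Atg9 and the lipid carrier Atg2 then build and extend the membrane, and a pair of ubiquitin-like conjugation systems attach Atg8 to its lipids. Cargo receptors tie chosen organelles or enzymes to Atg8 and to the scaffold Atg11. In well-fed cells TORC1 phosphorylates Atg13 and holds the Atg1 complex back, and inhibition of TORC1 starts autophagy even in rich medium. ATG8 is a known example of a gene whose transcript is kept low in rich medium, by the repressor Ume6.

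The deletion libraries were the shallow ones, with 3212848 and 5088194 reads, against 20841682 to 28774941 in the 2 rapamycin libraries and 18153459 and 26899486 in the 2 WT libraries. BUD27 had 6 and 9 reads in the deletion, 326 and 234 with rapamycin, and 268 and 246 in WT. The deletion libraries also held 5 and 8 reads of TRP1, a tryptophan synthesis gene, against 1320 and 813 with rapamycin and 738 and 626 in WT. BY4741 carries an intact TRP1 and lacks MET17 and LEU2, so these few TRP1 reads, 31 and 80 MET17 reads in WT, and 19 and 22 LEU2 reads in the deletion go against the strain label. FRS2, a synthetase gene that converges on BUD27, had a log2 fold change of -2.17 in the deletion against WT. Whether differences of the deletion come from the loss of Bud27 or from these other differences of the strain cannot be told apart. Marker reads also differ between the rapamycin and WT libraries. MET17 had 0 and 0 reads with rapamycin, and LEU2 had 1 and 1 with rapamycin and 1 and 14 in WT. In rapamycin against WT, effects of the drug and of any difference of the strain therefore cannot be told apart either. Whether the 2 libraries of a group were grown as separate cultures is not stated in the labels, and the spread behind each p may be technical. In bulk RNA, more transcript per cell and more cells with the transcript cannot be told apart.

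Levels are given as scaled CPM, that is CPM (read counts divided by the library's total, on a common scale), rescaled between libraries by the trimmed mean of M-values (TMM). Fold changes are differences of log2(scaled CPM + 1) between group means, which makes those of rare transcripts too small. A gene was called higher or lower at a limma adjusted p under 0.05, with Benjamini-Hochberg adjustment over 5279 gene rows. Of the 33 genes, 32 passed the filter on low counts. ATG16 (YMR159C), whose product binds the Atg12-Atg5 conjugate, did not, with 1 and 1 reads in the deletion, 6 and 2 with rapamycin, and 2 and 4 in WT. ATG39 and ATG15 reached the filter's limit of 0.513 CPM in both libraries of the rapamycin group only, so their place among the tested genes is owed to the group where they are high. Without the TMM step the median over all rows lies 0.40 higher in the deletion against WT, 0.55 higher with rapamycin against WT and 0.16 lower in the deletion against rapamycin (a shift of -0.16). No spike-in was used here to set the absolute level.

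In the bud27 deletion a minority of the autophagy genes differed from WT, in both directions, while with rapamycin most were higher than in WT. In the deletion 8 of the 33 genes were called higher and 4 lower than in WT, where 21.7% of all rows tested were higher and 25.5% lower. With rapamycin 22 were called higher and 1, ATG27, lower, where 24.4% of all rows were higher and 21.5% lower. The median log2 fold change of the 32 tested genes was 0.16 in the deletion and 0.87 with rapamycin, beside -0.02 and 0.05 over all rows. Set directly against rapamycin, the deletion had 3 of the genes higher and 17 lower, where 25.6% and 29.4% of all rows were called, and the median was -0.77 beside -0.01. Calls with an absolute log2 fold change of at least 1 numbered 4 higher and 2 lower in the deletion against WT (6.82% and 11.6% of all rows), 12 and 0 with rapamycin against WT (10.8% and 8.88%), and 0 and 11 in the deletion against rapamycin (9.02% and 15.7%). On the deposited CPM scale, without TMM, the calls were 14 higher and 2 lower in the deletion against WT (42.5% and 13.3% of all rows), 27 and 0 with rapamycin (54.7% and 8.18%), and 1 and 18 in the deletion against rapamycin (17.8% and 34.6%). The 22 genes higher with rapamycin include ATG39 and the 17 lower in the deletion against rapamycin include ATG39 and ATG15, which give no support to these counts, as they were tested because of their rapamycin level. The comparisons share libraries in pairs, WT or one of the others, so their fold changes are not independent.

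**Figure D1:**
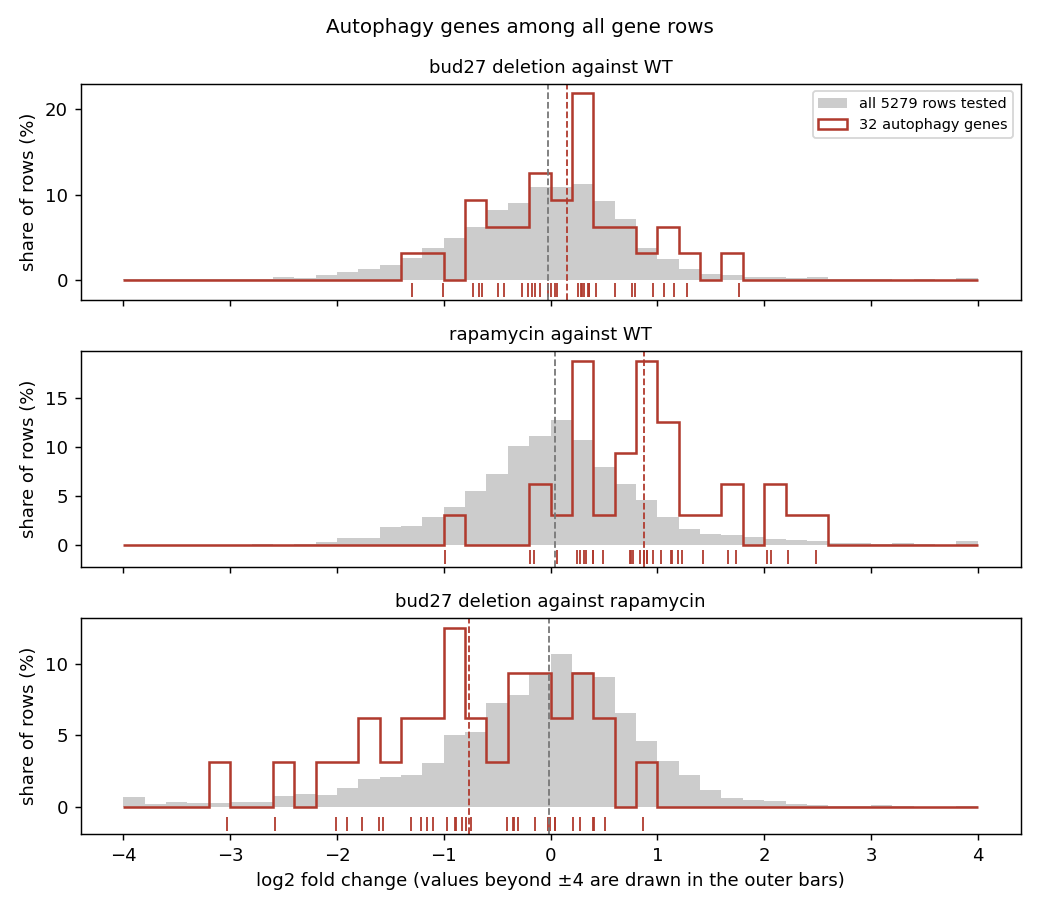
Distribution of log2 fold changes (x axis) as the share of rows in percent (y axis), for all 5279 rows tested (grey) and the 32 tested autophagy genes (red outline, with a red tick for each gene), in each comparison. Dashed lines are the medians. The red median lies at 0.16 in the deletion against WT, 0.87 with rapamycin against WT and -0.77 in the deletion against rapamycin, and the grey medians lie near 0.

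By direction, 6 genes were higher than WT in both groups, namely ATG13, ATG2, ATG20, ATG22, ATG33 and ATG4. Another 13 were higher with rapamycin and not called in the deletion. ATG32, ATG34 and ATG5 were higher with rapamycin and lower in the deletion. ATG21 and VPS30 were higher in the deletion and not called with rapamycin, and ATG27 was lower in both. ATG10, ATG12, ATG14, ATG17, ATG18 and ATG3 were not called in any of the 3 comparisons. The share of all rows with each pattern was not counted, and the comparisons share the WT libraries. The patterns therefore only sort the genes and are not a result about the set.

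**Figure D2:**
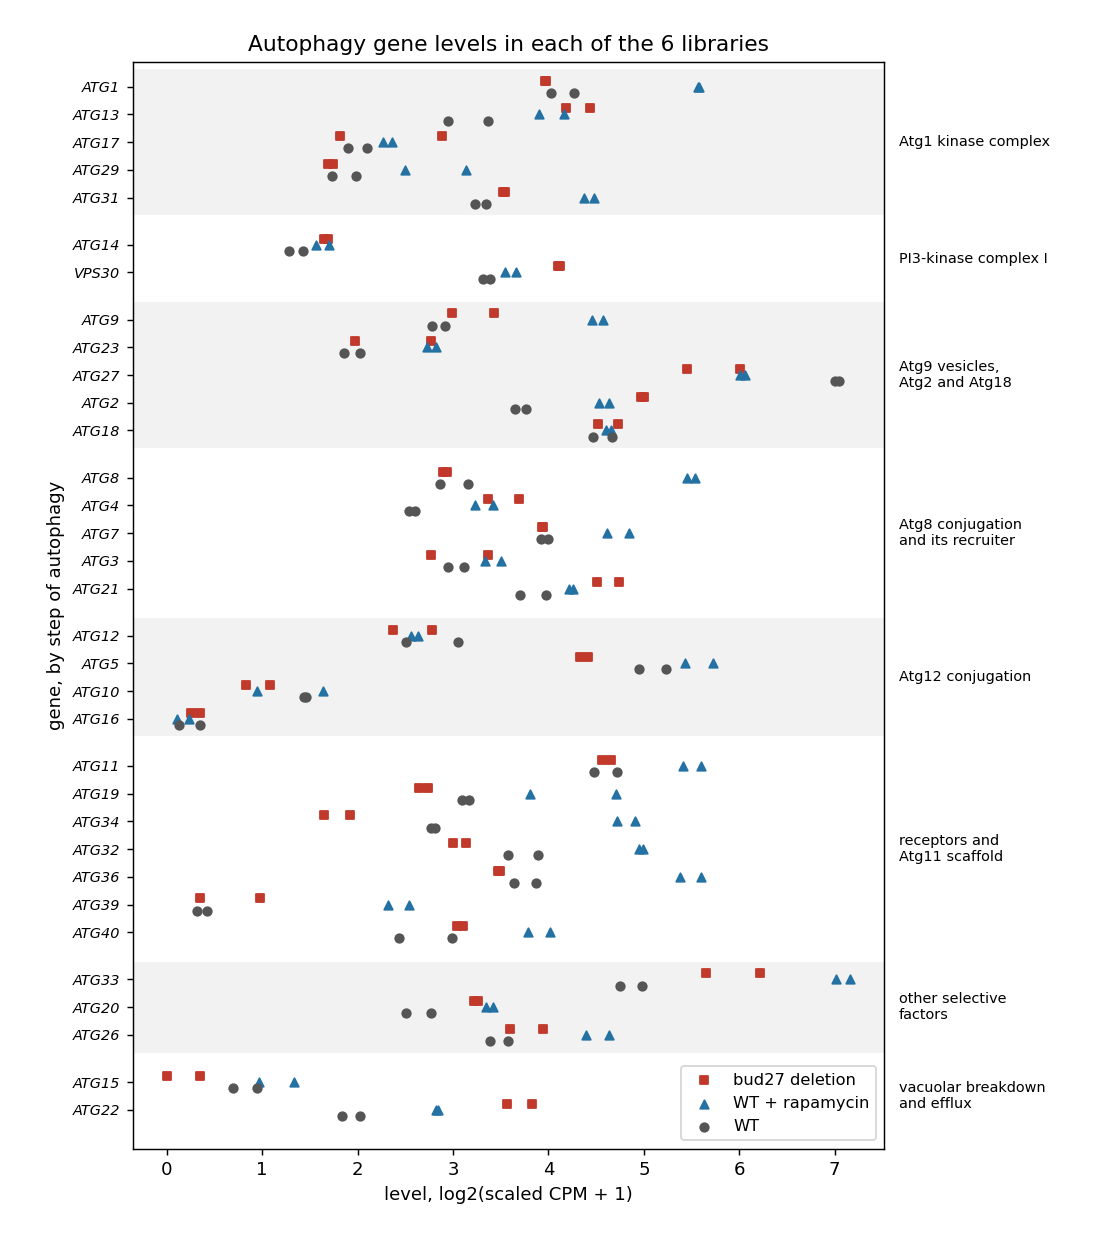
Level of each of the 33 genes in each of the 6 libraries on the log2(scaled CPM + 1) scale (x axis), grouped by step of autophagy (y axis). Red squares are the bud27 deletion, blue triangles are WT with rapamycin and grey circles are WT. For ATG8 and the 6 receptors the rapamycin libraries lie to the right of all others, and for ATG22 and VPS30 the deletion libraries do.

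The Atg1 kinase complex had 1 of 5 members higher in the deletion against WT, near the 21.7% of all rows, and 4 of 5 higher with rapamycin, where 24.4% of all rows were. ATG1 (YGL180W), the kinase itself, stood at 14.7 and 14.6 scaled CPM in the deletion, 46.7 and 46.4 with rapamycin, and 18.3 and 15.3 in WT. The deletion libraries lay just below WT and far below rapamycin. Its log2 fold change was -0.18 in the deletion against WT (SE 0.15, adjusted p = 0.35), 1.43 with rapamycin (SE 0.15, adjusted p = 0.0002) and -1.60 in the deletion against rapamycin (SE 0.15, adjusted p = 8.2e-05). ATG13 (YPR185W), the regulatory subunit that TORC1 phosphorylates, behaved otherwise, at 17.2 and 20.6 scaled CPM in the deletion, 16.9 and 13.9 with rapamycin, and 6.74 and 9.31 in WT. Both groups lay above both WT libraries, with log2 fold changes of 1.15 in the deletion (SE 0.20, adjusted p = 0.0027) and 0.87 with rapamycin (SE 0.20, adjusted p = 0.0087). Between deletion and rapamycin ATG13 was not called (0.28, SE 0.20, adjusted p = 0.27). The 2 genes can be set against each other without any scaling, since reads of both come from the same library. ATG1 had 0.855 and 0.708 reads per ATG13 read in the deletion, 2.76 and 3.34 with rapamycin, and 2.71 and 1.64 in WT.

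The scaffold of the complex is made of Atg17, Atg29 and Atg31. ATG31 (YDR022C) had 10.5 and 10.7 scaled CPM in the deletion, 21.3 and 19.7 with rapamycin, and 9.16 and 8.35 in WT. Its rapamycin libraries stood apart from the other 4, with log2 fold changes of 1.14 against WT (SE 0.15, adjusted p = 0.00065) and -0.89 for the deletion against rapamycin (adjusted p = 0.0018). ATG29 (YPL166W) had 2.22 and 2.34 scaled CPM in the deletion, 4.66 and 7.76 with rapamycin, and 2.96 and 2.33 in WT, with a log2 fold change of 0.96 with rapamycin against WT (SE 0.25, adjusted p = 0.014). The coding region of ATG29 overlaps SET6 on the opposite strand, and as the strand setting of the counting is not given in the sources used here, its reads are uncertain. ATG17 (YLR423C) was not called in any comparison, at 0.35 in the deletion and 0.31 with rapamycin. The rapamycin call of ATG13 was lost without WT replicate 1 (adjusted p = 0.075) or rapamycin replicate 1 (0.066), and that of ATG29 without WT replicate 1 (0.051), WT replicate 2 (0.10) or rapamycin replicate 2 (0.14). Without rapamycin replicate 2 the ATG29 call of the deletion against rapamycin was lost too (0.071), and without deletion replicate 2 ATG17 was called higher in the deletion than in WT (0.88, adjusted p = 0.0073) and than with rapamycin (0.57, adjusted p = 0.035).

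In the phosphatidylinositol kinase complex that acts on the forming autophagosome, VPS30 was higher in the deletion and ATG14, the subunit that directs the complex to autophagy, was not called. VPS30 (YPL120W), the yeast Beclin homologue, had 16.1 and 16.4 scaled CPM in the deletion, 10.7 and 11.6 with rapamycin, and 8.92 and 9.45 in WT. The 3 groups did not overlap, with the deletion highest and WT lowest. The log2 fold change of the deletion was 0.76 against WT (SE 0.15, adjusted p = 0.0051) and 0.51 against rapamycin (SE 0.15, adjusted p = 0.023), and that of rapamycin against WT was 0.25 (adjusted p = 0.21). The call against rapamycin was lost without rapamycin replicate 1 (adjusted p = 0.18) or replicate 2 (0.10). ATG14 (YBR128C) was low, with 8 and 11 reads in the deletion, and stood at 0.31 in the deletion and 0.27 with rapamycin.

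Among the 5 genes of membrane supply, 1 rose and 1 fell in the deletion, near the shares of all rows (21.7% and 25.5%), and 3 rose and 1 fell with rapamycin (24.4% and 21.5% of all rows). ATG27 (YJL178C), a membrane protein of the Atg9 vesicles, had 42.7 and 63.3 scaled CPM in the deletion, 65.5 and 63.5 with rapamycin, and 128 and 131 in WT. It was the gene of the set with the highest level in WT, and its WT libraries stood above all 4 others. The log2 fold change was -1.30 in the deletion (SE 0.18, adjusted p = 0.0011) and -0.99 with rapamycin (SE 0.18, adjusted p = 0.0031). The call with rapamycin was lost on the deposited CPM scale, where the value was -0.39 (adjusted p = 0.057). Between deletion and rapamycin ATG27 stood at -0.31 (adjusted p = 0.19), and without deletion replicate 2 it was called lower (-0.59, adjusted p = 0.0037). The gene that converges on ATG27, PFD1 at a distance of 165 bases, was not called in either comparison (0.12 in the deletion, -0.37 with rapamycin).

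ATG9 (YDL149W), the transmembrane protein that gives the vesicles their name and moves lipids across the bilayer, had 6.94 and 9.74 scaled CPM in the deletion, 22.8 and 21.0 with rapamycin, and 5.87 and 6.57 in WT. The rapamycin libraries were the high ones. ATG9 had log2 fold changes of 0.36 in the deletion (SE 0.19, adjusted p = 0.16), 1.67 with rapamycin (SE 0.19, adjusted p = 0.00033) and -1.31 in the deletion against rapamycin (SE 0.19, adjusted p = 0.00084). Without deletion replicate 1 it was called higher in the deletion (0.61, adjusted p = 0.019). Within libraries there were 0.162 and 0.154 ATG9 reads per ATG27 read in the deletion, 0.348 and 0.330 with rapamycin, and 0.0459 and 0.0502 in WT. On this measure, which needs no scaling, the deletion and the rapamycin libraries both lay above WT.

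ATG2 (YNL242W), which carries lipids into the growing membrane, had 31.1 and 30.4 scaled CPM in the deletion, 23.9 and 22.04 with rapamycin, and 11.6 and 12.6 in WT. The deletion was the highest group and WT the lowest, with no overlap. Its log2 fold change was 1.28 in the deletion (SE 0.14, adjusted p = 0.00036) and 0.87 with rapamycin (SE 0.14, adjusted p = 0.0017). The deletion exceeded rapamycin by 0.41 (adjusted p = 0.041), a call lost without WT replicate 1 (0.059), WT replicate 2 (0.059), rapamycin replicate 1 (0.14) or rapamycin replicate 2 (0.26). ATG18 (YFR021W), the phosphoinositide-binding partner of Atg2, lay between 21.1 and 25.5 scaled CPM in all 6 libraries and was not called. ATG23 (YLR431C), a peripheral protein of the Atg9 vesicles, was called higher with rapamycin and not in the deletion (0.83 with rapamycin, adjusted p = 0.036; 0.43 in the deletion, adjusted p = 0.22). The call did not pass without WT replicate 1 (adjusted p = 0.18), WT replicate 2 (0.11), rapamycin replicate 1 (0.082) or rapamycin replicate 2 (0.12), while without deletion replicate 2 ATG23 was called in the deletion (0.83, adjusted p = 0.0083) and without deletion replicate 1 it was lower than with rapamycin (-0.79, adjusted p = 0.011).

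ATG8 (YBL078C), the ubiquitin-like protein that is joined to lipid and binds cargo receptors, had the largest log2 fold change of the 32 tested genes with rapamycin. It had 6.66 and 6.43 scaled CPM in the deletion, 45.4 and 42.8 with rapamycin, and 6.25 and 7.94 in WT, from 24 and 33 reads in the deletion, 1558 and 1071 with rapamycin, and 129 and 116 in WT. The deletion libraries lay within the range of WT, and the rapamycin libraries averaged 6.21-fold above WT. The log2 fold change was -0.09 in the deletion (SE 0.17, adjusted p = 0.66), 2.49 with rapamycin (SE 0.17, adjusted p = 2.8e-05) and -2.58 in the deletion against rapamycin (SE 0.17, adjusted p = 1.3e-05). Among the 5279 rows the rapamycin value ranked 92 from the highest.

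The stretch before ATG8 is shown because ATG8 had the largest rise on the log2(scaled CPM + 1) scale, on which the rarer ATG39 is held down, and because it is one of 2 in the set with the core of the Ume6 site. It runs from 250 bases before to 50 bases after the first base of the coding region, 5′ to 3′ on the strand of the gene, and was read from the RefSeq sequence of build R64 at chrII:80682-80981, minus strand. Capitals mark matches on either strand to GATAAG (bound by Gln3 and Gat1), GGCGGC (core of the Ume6 site), TGACTC (Gcn4) and AGGGG (Msn2, Msn4 and Rph1).
ATG8: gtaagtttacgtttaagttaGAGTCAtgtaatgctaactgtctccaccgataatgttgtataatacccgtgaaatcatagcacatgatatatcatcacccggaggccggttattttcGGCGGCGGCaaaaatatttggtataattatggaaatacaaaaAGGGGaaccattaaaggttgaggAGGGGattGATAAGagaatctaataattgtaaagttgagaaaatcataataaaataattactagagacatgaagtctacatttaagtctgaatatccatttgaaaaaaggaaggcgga
The window holds GATAAG at -60, 2 overlapping GGCGGC matches at -133 and -130, TGACTC at -230 on the opposite strand, and AGGGG at -91 and -68. Over the set, 10 of 33 windows (30.3%) hold GATAAG, against 14.7% of the windows of 6001 protein-coding genes. GGCGGC is in 2 of 33 (6.06%, against 5.13%), TGACTC in 6 (18.2%, against 7.98%) and AGGGG in 8 (24.2%, against 21.6%). A match is a string of letters and not a measured binding site.

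The other genes of the Atg8 system had log2 fold changes of at most 0.77 with rapamycin. ATG4 (YNL223W), the protease that prepares Atg8, had 11.9 and 9.35 scaled CPM in the deletion, 9.67 and 8.40 with rapamycin, and 5.09 and 4.79 in WT. It rose on the log2 scale in both, by 0.96 in the deletion (SE 0.18, adjusted p = 0.0042) and 0.75 with rapamycin (SE 0.18, adjusted p = 0.011). Per ATG4 read there were 0.558 and 0.688 ATG8 reads in the deletion, 4.69 and 5.10 with rapamycin, and 1.23 and 1.66 in WT, so the ratio of these genes was lowest in the deletion. ATG7 (YHR171W), the activating enzyme shared by both conjugation systems, rose with rapamycin (0.77, SE 0.15, adjusted p = 0.0042) and stood at -0.02 in the deletion (adjusted p = 0.91). ATG3 (YNR007C), the conjugating enzyme, was not called, at 0.04 in the deletion and 0.39 with rapamycin (adjusted p = 0.19). ATG21 (YPL100W), a phosphoinositide-binding protein that brings the conjugation machinery to the membrane, had 25.8 and 21.8 scaled CPM in the deletion, 17.6 and 18.1 with rapamycin, and 14.7 and 12.05 in WT. It was called in the deletion (0.79, SE 0.17, adjusted p = 0.0063) and not with rapamycin (0.39, adjusted p = 0.086), and the direct test between deletion and rapamycin did not call it either (0.39, adjusted p = 0.076).

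Several of these calls changed when 1 library was left out, which also leaves fewer libraries to test. The rapamycin call of ATG4 was lost without WT replicate 1 (adjusted p = 0.055), WT replicate 2 (0.070) or rapamycin replicate 1 (0.10). Without rapamycin replicate 1 ATG7 was lost with rapamycin (0.063) and in the deletion against rapamycin (0.055). ATG21 in the deletion was lost without WT replicate 2 (0.057). Without either deletion library ATG21 and ATG3 were called with rapamycin, with adjusted p of 0.033 to 0.050. Without deletion replicate 2, the deletion was called against rapamycin for ATG21 (0.51, adjusted p = 0.031) and ATG3 (-0.65, adjusted p = 0.016).

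Of the Atg12 system, in which Atg12 is joined to Atg5 with the help of Atg10, only ATG5 (YPL149W) was called. It had 20.3 and 19.1 scaled CPM in the deletion, 42.1 and 52.0 with rapamycin, and 36.6 and 30.0 in WT. The 3 groups did not overlap, with the deletion lowest and rapamycin highest. The log2 fold change was -0.72 in the deletion (SE 0.17, adjusted p = 0.0088), 0.49 with rapamycin (SE 0.17, adjusted p = 0.042) and -1.21 in the deletion against rapamycin (SE 0.17, adjusted p = 0.00057). The deletion call did not pass without WT replicate 1 (adjusted p = 0.074) and on the deposited CPM scale (-0.30, adjusted p = 0.17). The rapamycin call was lost without each of the 4 libraries of that comparison in turn (adjusted p of 0.062 and 0.23 without WT replicates 1 and 2, and 0.057 and 0.29 without rapamycin replicates 1 and 2). ATG12 (YBR217W) stood at -0.21 and -0.19 and ATG10 at -0.49 and -0.15, in the deletion and with rapamycin, with adjusted p of 0.16 or more. ATG10 (YLL042C) rested on 4 and 4 reads in the deletion.

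In the deletion against rapamycin the cargo receptors and Atg11 had log2 fold changes from -3.03 (ATG34) to -0.83 (ATG40). Their median, -1.76, is the value of ATG39 itself, so it gives no support to a ranking of the steps. ATG39 was tested only because it is high with rapamycin and is set aside here. The other 5 receptors and ATG11 were called higher with rapamycin against WT, where 24.4% of all rows were. These 6 genes were also called lower in the deletion than with rapamycin, where 29.4% of all rows were. Both counts rest on the same rapamycin libraries. Against WT, 2 of the 7 genes fell in the deletion and none rose, where 25.5% and 21.7% of all rows did. The 6 receptors together summed to 33.6 and 33.5 scaled CPM in the deletion, 140 and 138 with rapamycin, and 43.0 and 46.1 in WT. The order of deletion and WT in this sum depends on the scaling, since as CPM of the reads in gene rows alone the sums were 58.1 and 49.7 in the deletion, 229 and 226 with rapamycin, and 44.0 and 51.9 in WT.

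Atg19 and Atg34 are related receptors that bring vacuolar hydrolases into the vacuole, Atg34 mainly in starvation. ATG34 (YOL083W) had 2.77 and 2.14 scaled CPM in the deletion, 28.9 and 25.4 with rapamycin, and 5.82 and 6.02 in WT. Its level was 11.05-fold lower in the deletion than with rapamycin, the largest gap of the tested genes on the log2 scale. ATG34 fell by 1.01 in the deletion against WT (SE 0.18, adjusted p = 0.0029), rose by 2.02 with rapamycin (SE 0.18, adjusted p = 9.9e-05) and fell by 3.03 in the deletion against rapamycin (SE 0.18, adjusted p = 1e-05). The deletion values rested on 10 and 11 reads. ATG19 (YOL082W) had 5.27 and 5.65 scaled CPM in the deletion, 13.0 and 25.2 with rapamycin, and 7.999 and 7.53 in WT. Its rapamycin libraries lay far apart, both above the other 4, and the log2 fold change was 1.13 with rapamycin (SE 0.27, adjusted p = 0.011) and -0.44 in the deletion (SE 0.27, adjusted p = 0.22). That call did not hold without WT replicate 1 (adjusted p = 0.071), WT replicate 2 (0.084) or rapamycin replicate 2 (0.076). The deletion against rapamycin gave -1.57 (adjusted p = 0.0019).

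Atg32 marks mitochondria for autophagy. ATG32 (YIL146C) had 7.77 and 7.01 scaled CPM in the deletion, 30.7 and 30.0 with rapamycin, and 10.96 and 13.8 in WT. As with ATG34, the deletion libraries were the lowest and the rapamycin libraries the highest. ATG32 had log2 fold changes of -0.67 in the deletion (SE 0.17, adjusted p = 0.013), 1.23 with rapamycin (SE 0.17, adjusted p = 0.0007) and -1.90 in the deletion against rapamycin (SE 0.17, adjusted p = 6.7e-05). The call in the deletion against WT was lost without WT replicate 2 (adjusted p = 0.093) and on the deposited CPM scale (-0.27, adjusted p = 0.27). ATG36 (YJL185C), the receptor for peroxisomes, had 10.3 and 10.1 scaled CPM in the deletion, 47.6 and 40.6 with rapamycin, and 13.6 and 11.5 in WT. It rose by 1.74 with rapamycin (SE 0.16, adjusted p = 0.00012) and was not called in the deletion (-0.27, adjusted p = 0.20).

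Atg39 and Atg40 are receptors for the endoplasmic reticulum, Atg39 for its perinuclear part. ATG39 (YLR312C) was nearly silent outside rapamycin, with 1 and 5 reads in the deletion, 165 and 100 with rapamycin, and 5 and 5 in WT. The read ratio after scaling was 15.7 with rapamycin against WT, with an exact counting interval at 95% of 8.42 to 33.2, and 2.42 in the deletion against WT, with an interval of 0.723 to 7.35. On the log2(scaled CPM + 1) scale the pseudocount holds its fold change with rapamycin to 2.06, a description only, since ATG39 entered the test through the rapamycin libraries. ATG40 (YOR152C) had 7.21 and 7.60 scaled CPM in the deletion, 15.2 and 12.8 with rapamycin, and 4.41 and 6.91 in WT. Its deletion libraries stood a little above WT, at 0.36 (SE 0.22, adjusted p = 0.20), and its rapamycin libraries at 1.19 (SE 0.22, adjusted p = 0.0028). Between deletion and rapamycin ATG40 fell by 0.83 (adjusted p = 0.013), a call lost without rapamycin replicate 1 (0.093). ATG11 (YPR049C), the scaffold that links receptors to the Atg1 complex, had 24.1 and 22.6 scaled CPM in the deletion, 47.5 and 41.5 with rapamycin, and 25.3 and 21.4 in WT, so that deletion and WT overlapped.

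The promoters of ATG34 and ATG32 are shown to compare receptors that rose together with rapamycin. Windows, strand and capitals are as for ATG8, in build R64 at chrXV:165464-165763 (plus strand) and chrIX:75724-76023 (minus strand).
ATG34: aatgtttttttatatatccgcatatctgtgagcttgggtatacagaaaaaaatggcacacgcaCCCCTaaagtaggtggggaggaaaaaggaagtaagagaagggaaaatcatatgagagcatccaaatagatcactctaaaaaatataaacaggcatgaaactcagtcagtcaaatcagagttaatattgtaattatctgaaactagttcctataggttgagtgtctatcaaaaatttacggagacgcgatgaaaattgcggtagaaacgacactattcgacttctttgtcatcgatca
ATG32: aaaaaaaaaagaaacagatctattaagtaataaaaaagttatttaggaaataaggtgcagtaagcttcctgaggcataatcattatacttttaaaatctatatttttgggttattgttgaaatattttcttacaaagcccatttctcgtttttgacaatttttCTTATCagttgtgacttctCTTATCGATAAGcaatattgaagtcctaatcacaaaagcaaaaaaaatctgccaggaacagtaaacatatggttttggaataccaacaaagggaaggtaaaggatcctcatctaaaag
ATG32 holds 3 GATAAG matches, at -87, -68 and -62, of which the last pair lie next to each other on opposite strands. The window of ATG34 holds a single AGGGG match at -187. No motif of the 4 kinds is in both windows. Of the other receptors, ATG36 and ATG39 have no match to the 4 motifs in their windows, and ATG40 has GATAAG at -91. GATAAG is also in the windows of ATG18 and ATG15, which were not called with rapamycin against WT.

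Among the other factors of selective autophagy, ATG33, a mitochondrial outer membrane protein that promotes mitophagy, was the most abundant autophagy transcript with rapamycin. It had 49.1 and 73.2 scaled CPM in the deletion, 142 and 128 with rapamycin, and 30.6 and 25.9 in WT. The 3 groups did not overlap, with the deletion in between. ATG33 (YLR356W) rose by 1.06 in the deletion (SE 0.20, adjusted p = 0.0037) and 2.22 with rapamycin (SE 0.20, adjusted p = 0.00011), and stood at -1.15 in the deletion against rapamycin (SE 0.20, adjusted p = 0.0018). ATG33 was thus called higher and ATG32 lower in the deletion. There were 0.158 and 0.0957 ATG32 reads per ATG33 read in the deletion, 0.216 and 0.234 with rapamycin, and 0.358 and 0.533 in WT.

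ATG26 (YLR189C), a sterol glucosyltransferase that is needed for the autophagy of peroxisomes in the yeast Pichia pastoris, had 11.1 and 14.4 scaled CPM in the deletion, 20.005 and 23.8 with rapamycin, and 9.50 and 10.9 in WT. Its deletion libraries lay next to WT, and the gene was called with rapamycin (1.03, SE 0.19, adjusted p = 0.0027) and not in the deletion (0.29, SE 0.19, adjusted p = 0.23). Without deletion replicate 1 it was called there (0.50, adjusted p = 0.049), and its call in the deletion against rapamycin (-0.74, adjusted p = 0.010) was lost without rapamycin replicate 2 (adjusted p = 0.10). ATG20 (YDL113C), a sorting nexin of the pathway that delivers hydrolases to the vacuole, was higher in the deletion (0.60, SE 0.17, adjusted p = 0.023) and with rapamycin (0.74, SE 0.17, adjusted p = 0.0091). The first call did not pass without WT replicate 1 (adjusted p = 0.13), and the second without WT replicate 1 (0.065) or rapamycin replicate 1 (0.054) or 2 (0.075).

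Of the 2 genes that act at the vacuole, ATG22 rose in the deletion and ATG15 was not called against WT. ATG22 (YCL038C), which exports amino acids released in the vacuole, had 10.8 and 13.2 scaled CPM in the deletion, 6.09 and 6.16 with rapamycin, and 2.57 and 3.08 in WT. The deletion was highest and WT lowest, with no overlap, and the deletion averaged 4.26-fold above WT. ATG22 had the largest log2 fold change of the set in the deletion, at 1.77 (SE 0.18, adjusted p = 0.00028), against 0.90 with rapamycin (SE 0.18, adjusted p = 0.005). The deletion exceeded rapamycin by 0.87 (SE 0.18, adjusted p = 0.005), and of the 3 genes called higher in that comparison ATG22 alone kept its call under all 14 alternative settings. Its 3′ end lies 58 bases from that of GID7 on the opposite strand, and GID7 had log2 fold changes of 0.42 in the deletion (adjusted p = 0.084) and 1.03 with rapamycin (adjusted p = 0.0021), so a share of these reads is uncertain where the counting did not use strand.

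The promoter of ATG22 is shown as that of the gene that rose most in the deletion, in build R64 at chrIII:56478-56777, minus strand.
ATG22: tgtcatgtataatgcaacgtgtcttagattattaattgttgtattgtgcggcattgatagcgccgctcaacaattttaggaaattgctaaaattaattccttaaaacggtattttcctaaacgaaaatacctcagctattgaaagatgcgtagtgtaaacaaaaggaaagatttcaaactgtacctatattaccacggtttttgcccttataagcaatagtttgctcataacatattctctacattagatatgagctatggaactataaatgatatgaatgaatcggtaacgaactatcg
It holds no match to the 4 motifs, which says only that these letters are not in this window.

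ATG15 (YCR068W), the vacuolar lipase that breaks open autophagic bodies, had 1 and 0 reads in the deletion, 52 and 24 with rapamycin, and 19 and 9 in WT. The scaled ratio of its reads was 0.144 in the deletion against WT, with an exact counting interval at 95% of 0.00352 to 0.871, and 0.0893 in the deletion against rapamycin, with an interval of 0.00223 to 0.513. The limma test gave -0.64 in the deletion against WT (adjusted p = 0.067), called without deletion replicate 1 (-0.80, adjusted p = 0.044). Against rapamycin the deletion stood at -0.97, a description only, since ATG15 entered the test through the rapamycin libraries.

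**Figure D3:**
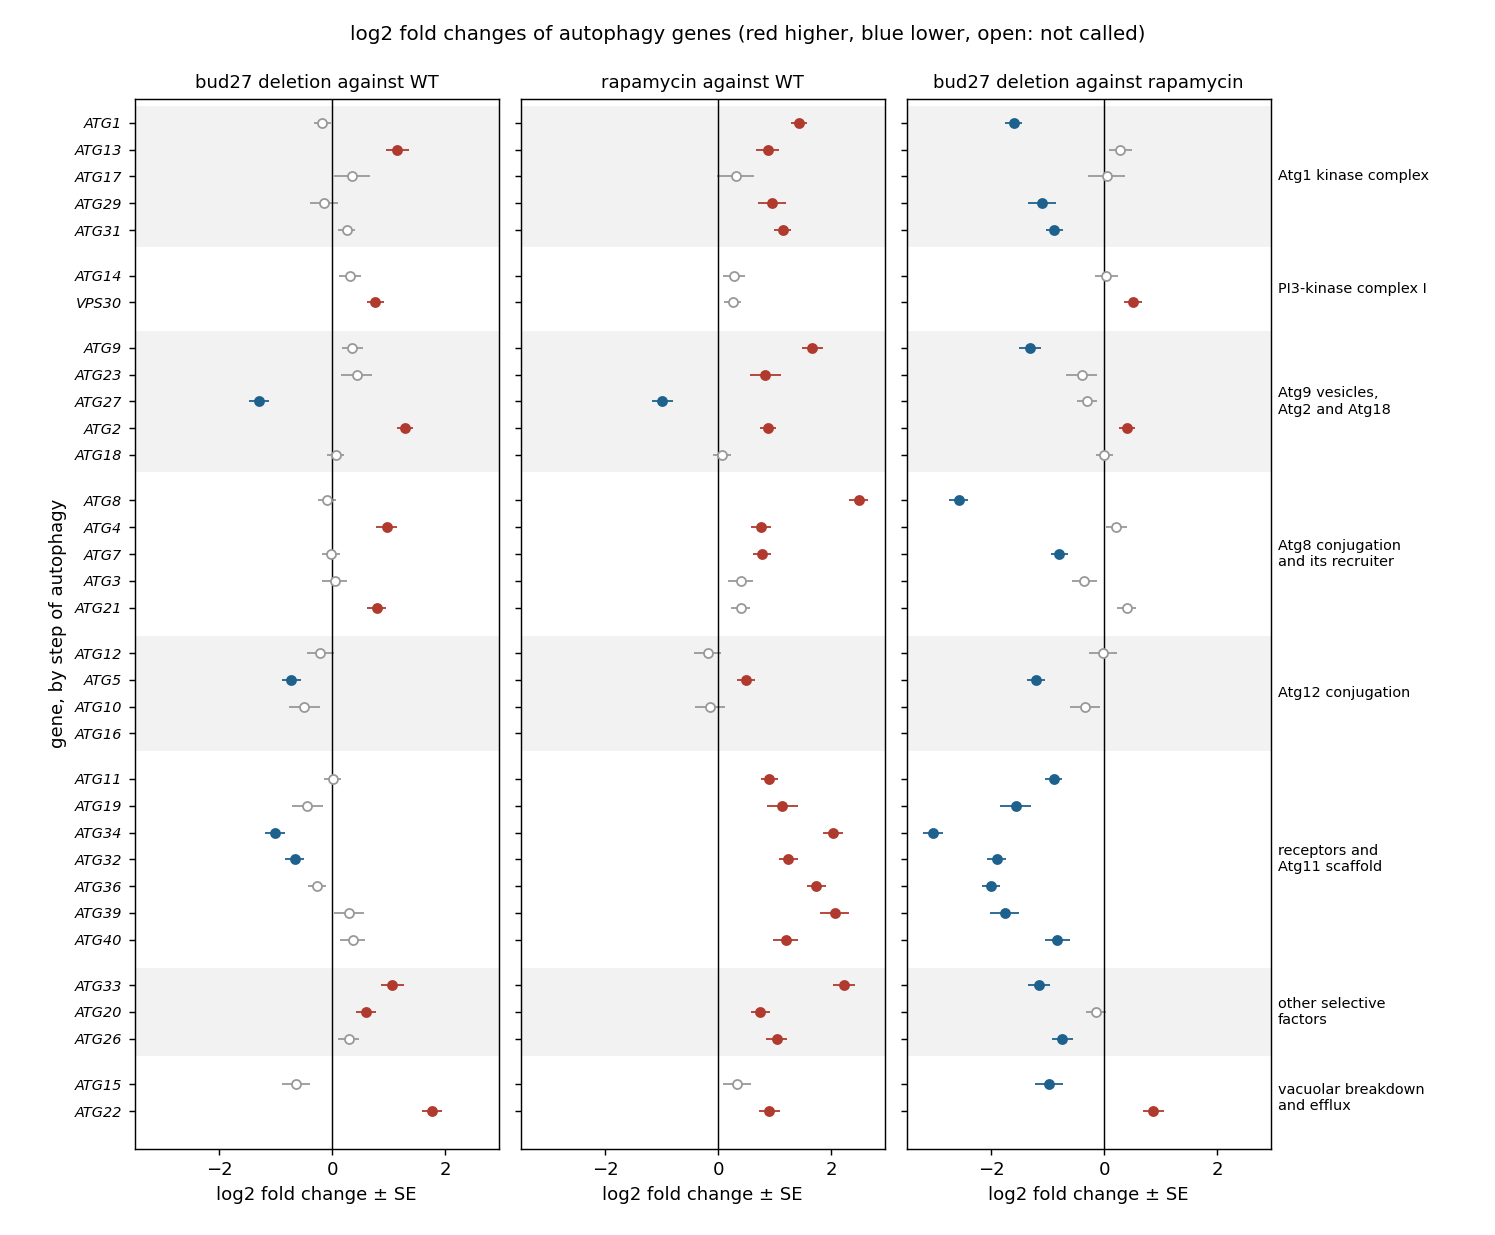
log2 fold change of each autophagy gene with its SE (x axis), by step (y axis), for the deletion against WT, rapamycin against WT and the deletion against rapamycin. Filled red points were called higher, filled blue points lower, and open points were not called. In the right panel all 7 receptor and Atg11 genes are blue, and ATG22, ATG2 and VPS30 are the red points. ATG39 and ATG15, both blue there, were tested because of their rapamycin level.

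By step, the median log2 fold change with rapamycin was highest for the receptors with ATG11, at 1.23, followed by the other selective factors at 1.03, the Atg1 complex at 0.96, the Atg9, Atg2 and Atg18 group at 0.83 and the Atg8 system at 0.75. It was 0.62 for the 2 vacuolar genes, 0.26 for the kinase complex of ATG14 and VPS30 and -0.15 for the Atg12 system. The medians of the receptors and of the vacuolar genes include ATG39 and ATG15, which were tested because of their rapamycin level. In the deletion the receptors stood at -0.27 and the Atg12 system at -0.49, while the other steps lay between 0.04 and 0.60. All 33 genes together summed to 409 and 450 scaled CPM in the deletion, 773 and 752 with rapamycin, and 431 and 423 in WT. Deletion and WT overlap on this scale, but as CPM of the reads in gene rows alone the sums were 708 and 667 in the deletion, 1261 and 1230 with rapamycin, and 440 and 476 in WT.

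Other genes of the pathway that are not in the set were read from lists. Their counts stand beside all rows, of which 21.7% were higher and 25.5% lower in the deletion, and 24.4% higher and 21.5% lower with rapamycin. Of 8 partners in membrane formation, 3 rose and 1 fell in the deletion and 3 rose and none fell with rapamycin. These are counts of few genes and were not tested against those shares. VPS34, the kinase of the VPS30 complex, rose in the deletion by 0.88 (SE 0.20, adjusted p = 0.0087), and ATG38, another subunit, rose with rapamycin by 1.61 (SE 0.25, adjusted p = 0.0014). YPT1, a small GTPase of membrane traffic, rose in both, by 0.90 and 0.75. ATG41, a partner of Atg9, was chosen after its values were seen, since its mean is under 20 CPM. It had 33.8 and 26.3 scaled CPM in the deletion, 4.48 and 5.80 with rapamycin, and 1.26 and 2.26 in WT. ATG41 rose on the log2 scale by 3.51 in the deletion (SE 0.24, adjusted p = 3.8e-05) and 1.17 with rapamycin (SE 0.24, adjusted p = 0.005), and its log2 fold change in the deletion exceeded those of the 32 tested genes of the set.

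Of 13 genes for fusion with the vacuole, 2 rose and 1 fell in the deletion, and 1 rose and 2 fell with rapamycin, no more than the shares of all rows (21.7% and 25.5%, then 24.4% and 21.5%). The one that fell in the deletion was MON1, part of the factor that activates the GTPase Ypt7, at -2.30 (SE 0.37, adjusted p = 0.0019). It was also named after its values were seen, and had 8 and 15 reads in the deletion, 294 and 540 with rapamycin, and 394 and 208 in WT. YPT7 itself rose in the deletion by 0.39 (SE 0.12, adjusted p = 0.031). YKT6, a fusion protein, stood at -0.38 with rapamycin (SE 0.13, adjusted p = 0.041) and at 0.21 on the deposited CPM scale, so its direction depends on the scaling.

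Of 8 cargo proteins and vacuolar hydrolases, 2 rose and 3 fell in the deletion (21.7% and 25.5% of all rows). With rapamycin 6 rose and none fell (24.4% and 21.5% of all rows). These counts of few genes were not tested against the shares. PEP4, the protease that activates other vacuolar hydrolases, had 35.8 and 45.2 scaled CPM in the deletion, 231 and 228 with rapamycin, and 82.6 and 83.9 in WT. It went the way of ATG34 and ATG32, with log2 fold changes of -1.03 in the deletion (SE 0.14, adjusted p = 0.001), 1.45 with rapamycin (SE 0.14, adjusted p = 0.00017) and -2.48 in the deletion against rapamycin (SE 0.14, adjusted p = 9.2e-06). PRB1, the vacuolar protease B, had log2 fold changes of -0.74 in the deletion, 1.49 with rapamycin and -2.24 in the deletion against rapamycin. PRC1 and CUE5 were the 2 that rose in the deletion, by 0.41 (SE 0.13, adjusted p = 0.03) and 0.66 (SE 0.13, adjusted p = 0.005). AMS1, the alpha-mannosidase that Atg19 and Atg34 carry, was named after its values were seen and had 7 and 8 reads in the deletion, 1051 and 633 with rapamycin, and 39 and 33 in WT. Its log2 fold change was 3.23 with rapamycin (SE 0.19, adjusted p = 1.6e-05) and -0.16 in the deletion (adjusted p = 0.51).

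Of 14 regulators of the ATG genes or of Atg1, 6 rose and 3 fell in the deletion (21.7% and 25.5% of all rows). With rapamycin 5 rose and none fell (24.4% and 21.5%). These counts of few genes were not tested against those shares. GLN3, an activator that binds GATA sites, rose by 1.17 in the deletion (SE 0.15, adjusted p = 0.00079) and by 0.77 with rapamycin (SE 0.15, adjusted p = 0.0047). Between deletion and rapamycin GLN3 was not called (0.40, adjusted p = 0.055). GCN4, the activator of the amino acid starvation response, rose by 0.81 in the deletion and 1.004 with rapamycin. SIN3, a subunit of the deacetylase complex that Ume6 recruits, rose by 0.93 in the deletion. RPH1, a demethylase that represses ATG genes, fell by 0.53 in the deletion (SE 0.15, adjusted p = 0.021) and rose by 0.84 with rapamycin (SE 0.15, adjusted p = 0.0024). GAT1, another GATA activator under 20 CPM and named after its values were seen, rose by 0.89 in the deletion and 2.19 with rapamycin. YAK1, a kinase gene of this list, shares its row with an overlapping open reading frame. The row stood at -0.40 in the deletion against WT, a direction that is lost on the deposited CPM scale (0.017), and rose by 0.81 with rapamycin.

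**Figure D4:**
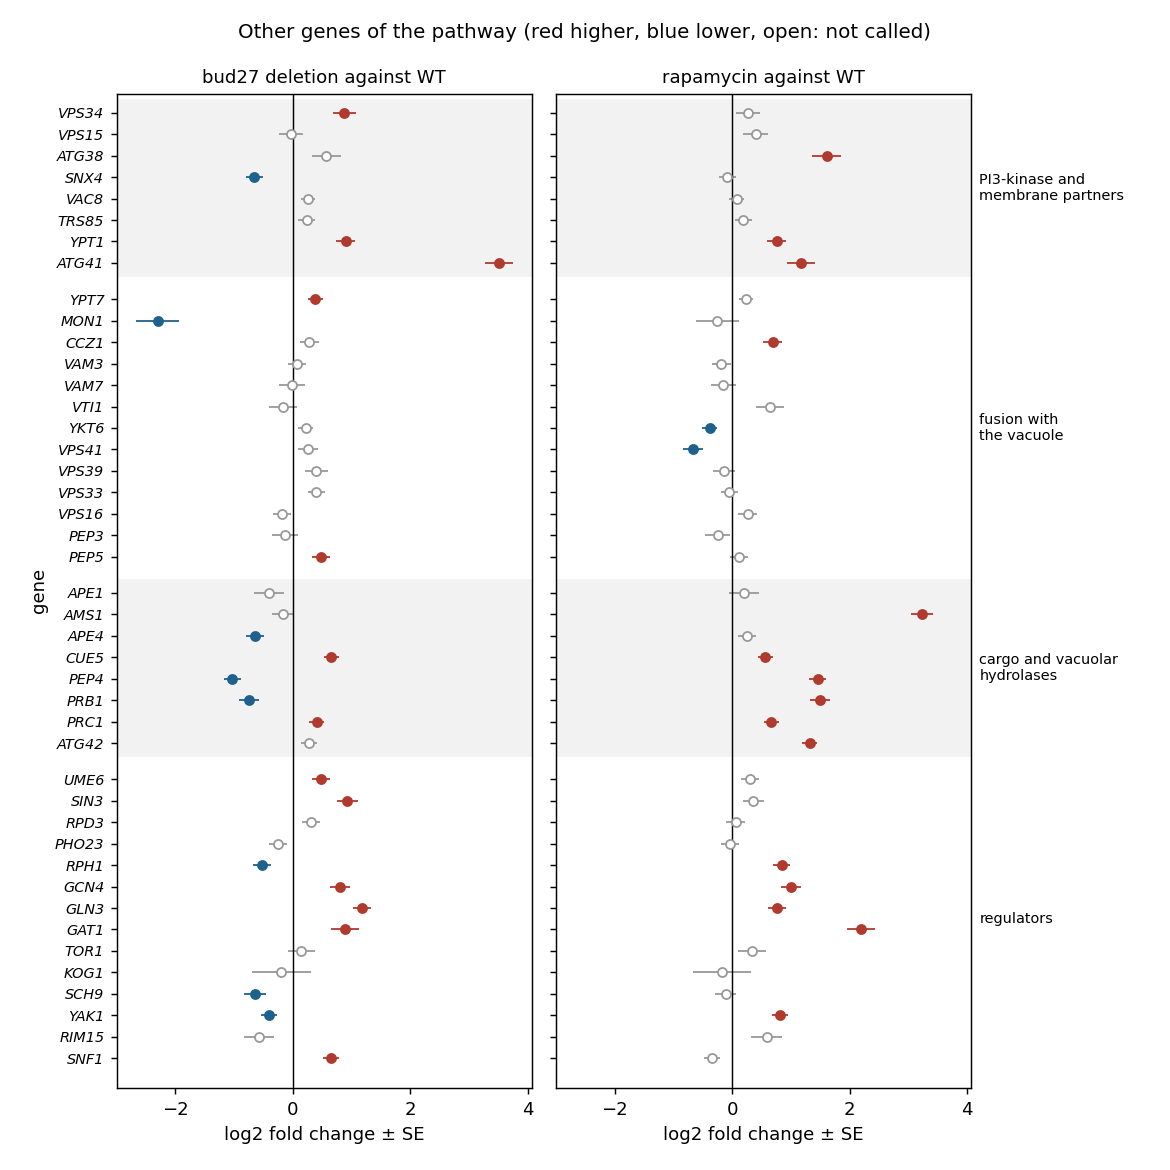
log2 fold change with its SE (x axis) of the other pathway genes by list (y axis), for the deletion against WT and rapamycin against WT. Filled red points were called higher, filled blue points lower, open points were not called. Among hydrolases, PEP4 and PRB1 are blue in the deletion (-1.03 and -0.74) and red with rapamycin (1.45 and 1.49). PRC1 is red in both (0.41 in the deletion and 0.66 with rapamycin). ATG41 is the farthest point in the deletion, at 3.51.

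Neighbouring genes limit how far reads near 3′ ends can be assigned, where strand was not used. Of the 33 genes, 21 face a converging next gene, 9 of them within 200 bases. ATG31 lies 68 bases from FAL1, which stood at -1.35 in the deletion and -1.39 with rapamycin, and ATG11 lies 83 bases from TAH18, at 0.17 and -1.02. Those neighbours moved the opposite way to the rise of ATG31 and ATG11 with rapamycin. Other neighbours within 200 bases had log2 fold changes of the same sign as their gene with rapamycin. Of these neighbours only GID7 was called. PPT2 (adjusted p = 0.13), INA17 (0.37) and PFD1 (0.11) were not, and ATG21 itself was not called with rapamycin. GID7 stood at 1.03 beside 0.90 for ATG22, and PPT2 at 0.41 beside 0.49 for ATG5. INA17 stood at 0.16 beside 0.39 for ATG21, and PFD1 at -0.37 beside -0.99 for ATG27. FPS1 stood at 0.17 beside -0.15 for ATG10. YDL114W, 102 bases from ATG20, has no fitted value here. ATG36 lies 179 bases from MNN5, at -0.79 and -0.42, against 1.74 for ATG36 itself with rapamycin. How many reads of a pair cross over was not tested.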

How the data were processed

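RNA from 2 libraries per group was sequenced from 3′ ends (QuantSeq, per the labels' protocols). Build R64 and the tools HISAT2, FastQC, DESeq and DESeq2 are named in the submitters' processing notes. How reads were counted, with which annotation and strand setting, is not given in the sources used here. CPM values were deposited by the authors. A CPM column is made of steps worth 1 read each, and 100% of its values came out whole (tolerance 0.01 reads), so reads were recovered. The 3 reads that a count of 0 allows equal 0.104 to 0.165 CPM in the rapamycin and WT libraries and 0.590 and 0.934 CPM in the deletion libraries. Intervals and such limits cover counting error only, as reads without molecular identifiers are not independent molecules.

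From the deposited CPM, TMM factors (edgeR 4.0.16) were 1.12 and 1.01 for the deletion, 1.19 and 1.20 for rapamycin, and 0.767 and 0.805 for WT. Rows passed edgeR's filter by group (minimum count 10). The test was the trended empirical Bayes fit of limma 3.58.1 (in R 4.3.3) on log2(scaled CPM + 1), 3 groups in 1 model, 3 residual degrees of freedom, checked on simulated data. Rows of cryptic and stable unannotated transcripts (925 and 847) were left out. On the recovered reads edgeR's quasi-likelihood test called 1152 rows higher and 1304 lower in the deletion against WT, 1412 and 1245 with rapamycin, and 1384 and 1527 in the deletion against rapamycin.

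The members and lists were chosen with earlier results of these data known. Per-library values were given for members called with an absolute log2 fold change of 1 or more and for ATG8, ATG1, ATG19 and the receptors, and for some others chosen after their values were seen, as were the read ratios. From each other list, up to 3 called genes per comparison with a mean of at least 20 CPM were eligible by size of change. Promoters were read from the RefSeq sequence of R64, in which all 33 symbols matched. The sequence of 1 promoter is not reported here.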

Additional observations from a re-analysis of the deposited data

How the results depend on the processing

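Under 14 alternative settings no called autophagy gene changed direction. On the deposited CPM scale 14 genes were higher and 2 lower in the deletion against WT, 27 higher and 0 lower with rapamycin, and 1 higher and 18 lower in the deletion against rapamycin. There limma called 42.5% of all rows higher in the deletion and 54.7% with rapamycin. In the other pathway lists 2 calls were lost there with a change of sign, YAK1 in the deletion against WT (0.017) and YKT6 with rapamycin (0.21). Leaving out 1 library at a time gave 7 to 10 genes higher and 3 to 5 lower in the deletion against WT, 15 to 24 higher and 1 lower with rapamycin, and 1 to 5 higher and 14 to 19 lower in the deletion against rapamycin. The higher count of the last comparison was 5 without deletion replicate 2 and 1 without either rapamycin replicate. With 1 library left in a group, that library is assumed to vary like the other groups.

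Under every setting, 6 of 8 higher calls and 2 of 4 lower calls (ATG27 and ATG34) stood in the deletion against WT, 14 of 22 higher calls and 0 of 1 lower call (ATG27) with rapamycin, and 1 of 3 higher calls and 12 of 17 lower calls in the deletion against rapamycin. The 22 and its 14 kept calls include ATG39, as do the 17 and its 12, and the 17 also include ATG15. Both genes were tested because of their rapamycin level and give no support to these counts. The same holds for the counts under alternative settings given above. With DESeq2 1.42.0 on the recovered reads, ATG20 was not called in the deletion against WT (adjusted p = 0.059) and ATG5 was not called with rapamycin (0.055). Replicate numbers did not pair the samples, as deviations of same-numbered samples correlated by 0.036 (deletion and rapamycin), -0.053 (deletion and WT) and -0.097 (rapamycin and WT) across rows. A fit with the replicate number as a block called 8 higher and 4 lower in the deletion against WT, 21 and 1 with rapamycin, and 2 and 17 in the deletion against rapamycin. The shallow deletion libraries limit what can be read from ATG10, ATG15, ATG16 and ATG39, each with at most 5 reads in a deletion library.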

Other observations

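Genes that mark laboratory strains were read as a check of the strain label. URA3 had 10 and 14 reads in the deletion, 66 and 42 with rapamycin, and 70 and 42 in WT. LEU2 had 19 and 22 reads in the deletion, 1 and 1 with rapamycin, and 1 and 14 in WT. MET17 had 2 and 3 reads in the deletion, 0 and 0 with rapamycin, which allows up to 3 reads in each library, and 31 and 80 in WT. LYS2 had 1158 and 1036 reads in the deletion, 2840 and 2075 with rapamycin, and 986 and 666 in WT, and ADE2 had 321 and 376 in the deletion, 2327 and 1529 with rapamycin, and 1019 and 815 in WT. HIS3, whose row is joined with an overlapping open reading frame, had a log2 fold change of 2.53 in the deletion (SE 0.19, adjusted p = 5.6e-05) and 1.43 with rapamycin (SE 0.19, adjusted p = 0.00064). BY4741 is known to lack URA3, LEU2 and MET17. Whether the reads listed for these genes come from the genes themselves was not tested. How these differences bear on the autophagy genes was not tested.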
